A study of Mus musculus with 13 samples.

Results

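The comparison described here set the hippocampus of 5xFAD mice given Aducanumab against that of 5xFAD mice given saline. All 4 Aducanumab libraries and all 4 saline libraries of the study were chosen by their treatment label, which makes 8 of 13 libraries; the other 5 came from 5xFAD mice given ACLP-NT, an agent whose name the labels do not spell out, and entered only the scaling, the filter and the estimate of spread. All groups share the 5xFAD genotype, and no group without the transgenes was compared. 5xFAD mice express human transgenes, APP among them, with familial Alzheimer's disease mutations in neurons, from the Thy1 promoter, and deposit amyloid plaques early in life. Each library carries a number, a tissue and a treatment in its label, and the labels used here give no age, sex, dose, route or duration. RNA of the hippocampus was selected with oligo(dT), which captures polyadenylated transcripts, and sequenced.

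Aducanumab is a monoclonal IgG that binds aggregated amyloid beta. An antibody on a plaque can be bound by Fc gamma receptors of microglia, the resident macrophages of the brain, whose activating members signal through the adaptor chain encoded by Fcer1g and the kinase Syk. Microglia near plaques lower their homeostatic genes, such as P2ry12 and Cx3cr1, and turn on a disease-associated programme that includes Trem2, Cst7 and Clec7a. Antibodies against amyloid are also known for side effects at vessels, so genes of the vessel wall, of iron handling and of coagulation were read together with those of microglia, lysosomes, amyloid handling and neurons.

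Of 36287 genes listed, 22065 had enough reads to be tested, and edgeR's quasi-likelihood test called none of them at an adjusted p below 0.05 (0% called, smallest adjusted p 0.485). Before adjustment, 1033 genes had p below 0.05 (4.68% of those tested), 456 higher under Aducanumab (2.07%) and 577 lower (2.62%). The 2 groups did not overlap in any library for 569 genes (2.58%), 257 higher (1.16%) and 312 lower (1.41%). limma on the FPKM values called 0 genes, and 1154 had an unadjusted p below 0.05 there. DESeq2 called 16 of the 21620 genes to which it gave an adjusted p (0.074%). The differences given below are therefore descriptions of these 8 libraries that did not pass the adjusted threshold in edgeR, and every gene named here had an edgeR adjusted p of 0.485 or more. Below, p below 0.05 refers to edgeR's unadjusted p and serves only to count genes. The gene lists were chosen with earlier results of these data known. Shares over all genes stand beside their counts for scale only. Nothing in the labels says that the numbered libraries came from separate animals, and p-values then measure only the spread between these samples, which may be technical.

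The 8 libraries held between 56858092 and 69734713 counts, and libraries of 1 group differed by more than counting noise, the smallest chi-square per degree of freedom within these 2 groups being 18.8. Values are CPM, read counts scaled to library size after TMM, and per-library values are given in the order 18, 19, 32 and 38 for saline and 24, 50, 56 and 58 for Aducanumab. Markers of the hippocampus were present, with 16 of 16 listed dentate gyrus genes and 20 of 20 CA field genes tested. Markers of tissue that borders the hippocampus differed widely between libraries: the summed level of 20 choroid plexus genes ran from 266 to 8086 CPM in saline and from 306 to 8419 CPM in Aducanumab, with library 38 high in saline and libraries 56 and 58 high in Aducanumab. Ttr, the transthyretin of choroid plexus epithelium, was at 21, 485, 76.2 and 4482 CPM in saline and 616, 48.6, 4106 and 4556 CPM in Aducanumab. The 20 meningeal fibroblast genes summed to 698 to 1551 CPM in saline and 776 to 2457 CPM in Aducanumab, with library 58 highest. Of the choroid plexus genes 20 of 20 had a log2 fold change above 0, and of the meningeal genes 19 of 20 (51.3% of all genes). In both lists 0 reached p below 0.05 (4.68% of all genes tested). Their medians were 0.80 and 0.30, with 0.24 and -0.16 without Aducanumab 58 and 2.96 and 0.59 without saline 38. The 17 neocortex genes summed to 502.8 to 660.3 CPM in saline and 427 to 502.9 CPM in Aducanumab, and 15 of the 17 were lower under Aducanumab. The 17 thalamus, habenula and midbrain genes summed to 201 to 236 CPM in saline and 186 to 445 CPM in Aducanumab, the highest value being library 50. In whole tissue, fewer cells of a type and less RNA per cell cannot be told apart.

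**Figure D1:**
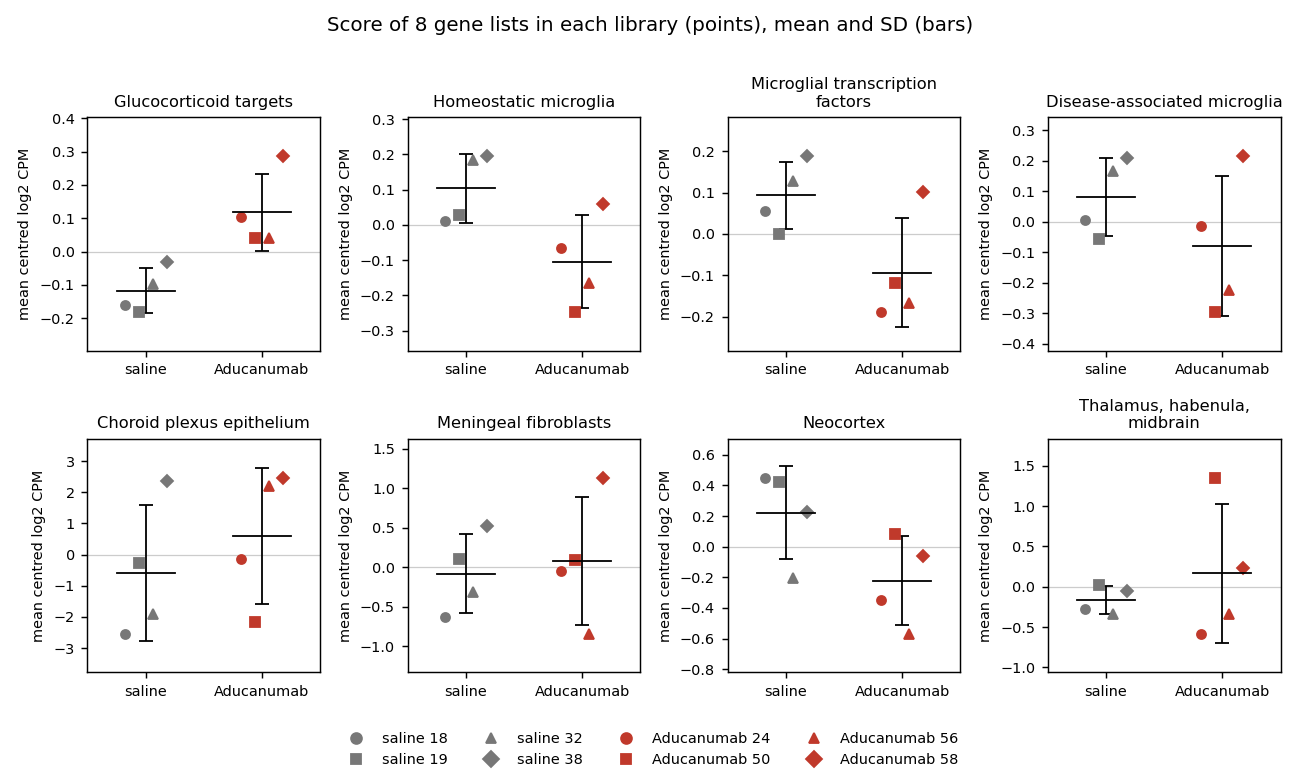
Score of 8 gene lists in each library; the y axis is the mean over the list's tested genes of the log2 CPM centred on the 8 libraries, points are libraries, the horizontal line is the group mean and the bar is the SD (n = 4). Glucocorticoid target scores do not overlap between saline (-0.18 to -0.03) and Aducanumab (0.04 to 0.29), whereas choroid plexus scores span -2.54 to 2.35 in saline and -2.16 to 2.46 in Aducanumab. The lists were chosen with earlier results of these data known.

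The single genes with the smallest p were spread over several functions. Col25a1, which encodes a neuronal transmembrane collagen found in amyloid plaques, was at 59.5, 68.8, 58.8 and 59.6 CPM in saline and 76.8, 85.5, 77.7 and 81.5 CPM in Aducanumab. Each Aducanumab library was above each saline library, with a log2 fold change of 0.38 ± 0.070 (SE) and adjusted p = 0.485. Plekhf1, which encodes an endosomal and lysosomal membrane adaptor, was at 3.14, 2.9, 2.56 and 3.75 CPM in saline and 5.62, 5.73, 4.64 and 7.65 CPM in Aducanumab. This was a log2 fold change of 0.94 ± 0.18 (SE), again without overlap. Gpt2, the mitochondrial alanine transaminase that interconverts glutamate and alanine, was at 68.1, 67.3, 70.6 and 70.4 CPM in saline and 84.9, 78.8, 78.1 and 76.5 CPM in Aducanumab. The groups did not overlap, and the small spread went with a log2 fold change of 0.20 ± 0.043 (SE). Ccdc96, a gene at a low level, was at 1.62, 1.27, 1.44 and 1.56 CPM in saline and 2.9, 2.42, 3.21 and 3.03 CPM in Aducanumab, which gave a log2 fold change of 0.97 ± 0.17 (SE). It is on a list of ependyma genes, of which 15 of 15 tested were above 0 (51.3% of all genes), with a median of 0.43. That list summed to 57 to 123 CPM in saline and 61 to 162 CPM in Aducanumab, with libraries 56 and 58 highest. The part of ependyma in the Ccdc96 difference was not tested. B4galt4, a galactosyltransferase, and Stx18, a syntaxin of the endoplasmic reticulum, were higher without overlap, with log2 fold changes of 0.30 and 0.24. Myo5b, a myosin that moves recycling endosomes, had a log2 fold change of 0.35, and Hif3a, a hypoxia-inducible factor subunit, had 0.89 from saline values of 4.66, 4.61, 3.74 and 3.03 CPM to Aducanumab values of 9.0, 5.51, 8.12 and 7.14 CPM. With the neocortex score, the mean centred log2 CPM of the neocortex genes, as a covariate in the fit the value for Myo5b was 0.17. With the choroid plexus score as a covariate the value for Ccdc96 was 0.89.

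Among the genes lower under Aducanumab, Efhd2, which encodes a calcium-binding protein, was at 180.0, 188, 152 and 162 CPM in saline and 138, 148, 138 and 132 CPM in Aducanumab. The groups did not overlap and the difference was a log2 fold change of -0.30 ± 0.063 (SE). Rps12, a protein of the small ribosomal subunit, was at 52.5, 53.8, 55.6 and 55 CPM in saline and 39.5, 46.7, 40 and 47.7 CPM in Aducanumab, that is a log2 fold change of -0.32 ± 0.078 (SE). Of 35 other cytosolic ribosomal protein genes on a list 32 were below 0, with a median of -0.05. Rpl30 (-0.27, or -0.17 without saline 32) was the 1 at p below 0.05 (4.68% of all genes tested). Tpd52, Zfp710, Cav2 (a caveolin) and Ptgs1 (cyclooxygenase 1) were lower without overlap, with log2 fold changes of -0.27, -0.23, -0.27 and -0.29. Sla, an adaptor that dampens antigen receptor signalling, was at 11.9, 11.5, 8.64 and 9.73 CPM in saline and 5.98, 8.22, 5.81 and 7.55 CPM in Aducanumab, which gave a log2 fold change of -0.60 ± 0.14 (SE). Nxph3 (-1.53), a neurexophilin, and Tshz3 (-0.84), a zinc finger factor, had larger log2 fold changes, with saline ranges of 12 to 31.4 CPM and 9.69 to 17.8 CPM. With the neocortex score as a covariate, the log2 fold changes of Sla, Nxph3, Tshz3 and Efhd2 were -0.29, -0.80, -0.39 and -0.18. Hpn, a membrane serine protease, was at 2.45, 2.37, 3.3 and 2.43 CPM in saline and 1.5, 1.84, 1.79 and 1.62 CPM in Aducanumab, a log2 fold change of -0.64. Tnxb, an extracellular matrix tenascin, was higher at 0.42 with overlapping groups (0.24 with the neocortex score as a covariate).

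**Figure D2:**
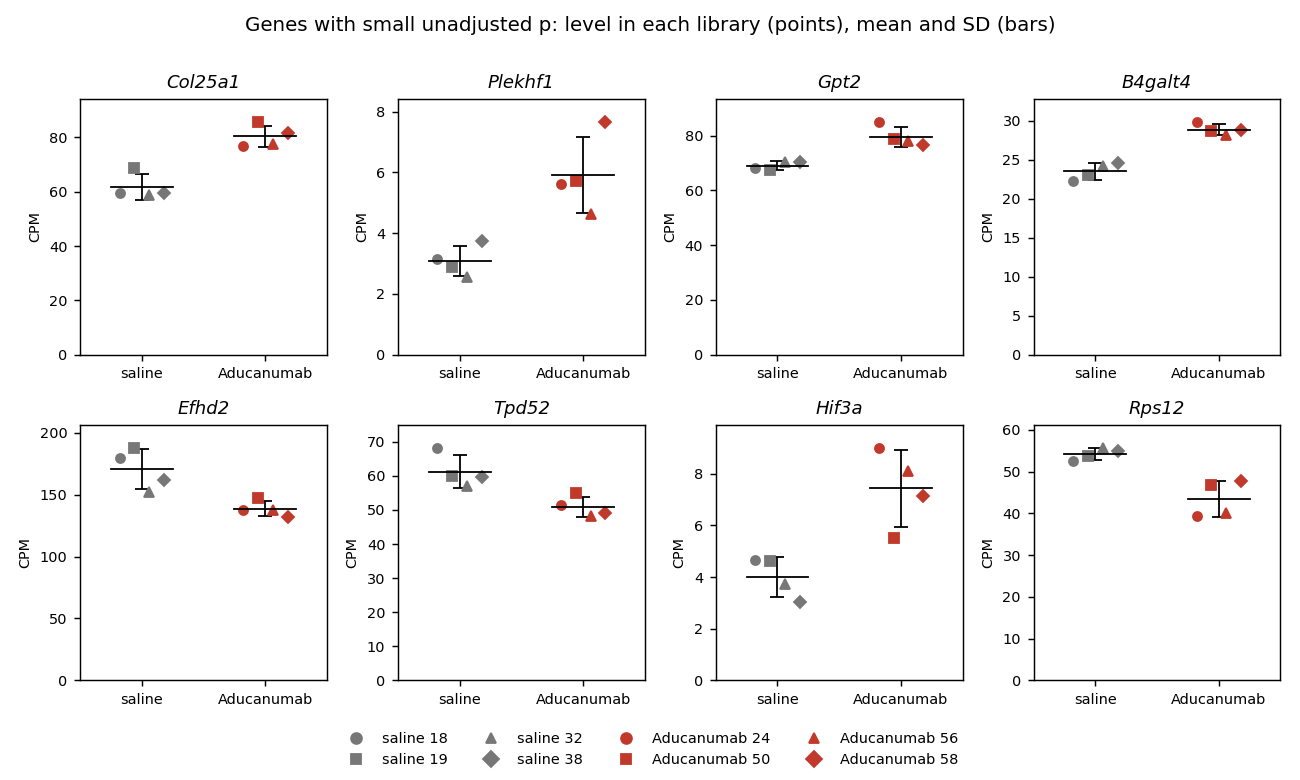
CPM of 8 genes among those with the smallest unadjusted p; each panel has its own y axis from 0, points are libraries, the horizontal line is the group mean and the bar is the SD (n = 4). The 8 genes shown are all among those without overlap, for example Col25a1 at 58.8 to 68.8 CPM in saline and 76.8 to 85.5 CPM in Aducanumab. The groups of other genes with a small p, such as Pagr1a and Tnxb, overlapped.

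DESeq2's 16 calls were Hif3a, Ikzf1, Tshz3, B4galt4, Gpd1, Myo5b, Pagr1a, Gpt2, Efhd2, Ccdc96, Col25a1, Plekhf1, Bglap3, 4933407K13Rik, Rnasek and Thap6. In some of these few libraries or few reads held the difference. Thap6 was at 0 CPM in 7 libraries and at 3.37 CPM in Aducanumab 58. Pagr1a was at 0.769, 1.08, 0.553 and 0.396 CPM in saline and 0.942, 1.98, 7.01 and 3.37 CPM in Aducanumab, so the groups overlapped and 56 and 58 held the high values. Bglap3 was at 2.08, 0.71, 0.374 and 2.19 CPM in saline and 0.174, 0.228, 0 and 0.322 CPM in Aducanumab, and Rnasek at 16.8, 14.1, 18.2 and 17 CPM in saline and 38.7, 20.2, 20.4 and 33.6 CPM in Aducanumab, with Aducanumab 24 and 58 high. The log2 fold change of Bglap3 was -2.88, and -1.71 with the neocortex score as a covariate. Nav2, a neuron navigator gene chosen after its values were seen, was at 43.9, 44.6, 78.4 and 44.4 CPM in saline and 68.9, 71.8, 72.1 and 69.2 CPM in Aducanumab. Saline 32 stood with the Aducanumab libraries, and without it Nav2 was the 1 gene edgeR called, with adjusted p = 9.65e-05 and a log2 fold change of 0.67; with the neocortex score as a covariate and all libraries that value was 0.24.

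Genes of a glucocorticoid list, which holds targets and the receptor gene Nr3c1, were mostly higher under Aducanumab. Of 22 listed genes, all tested, 19 had a log2 fold change above 0, against 51.3% of all genes. The median was 0.21 against 0.0036 over all genes tested. At an unadjusted p below 0.05, 10 were higher (2.07% of all genes tested) and 1, Nr3c1, was lower (2.62%). None passed the adjusted threshold. The list was chosen with earlier results of these data known, so these shares are not independent support. Corticosterone enters cells and binds the glucocorticoid receptor, which moves to the nucleus and binds palindromic sites in DNA. The summed level of the list was 992 to 1148 CPM in saline and 1205 to 1275 CPM in Aducanumab.

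Sgk1 is printed because it is a classical target whose window holds such a site. The motif searched was GNACANNNTGTNC on both strands of the 250 bases before each RefSeq start site (GRCm38.p6). It was in 127 of 32851 windows of all genes (0.387%) and in 2 of 28 windows of the 18 listed genes that matched the table (7.14%). The Sgk1 window, chr10:21993640-21993889 on the plus strand, is given 5′ to 3′ with the match, which begins at position -188 from the start site, in capitals. Several motif forms were looked at, the motif and the gene were chosen after the matches were seen, and a match is a description of letters and not of binding.
Sgk1: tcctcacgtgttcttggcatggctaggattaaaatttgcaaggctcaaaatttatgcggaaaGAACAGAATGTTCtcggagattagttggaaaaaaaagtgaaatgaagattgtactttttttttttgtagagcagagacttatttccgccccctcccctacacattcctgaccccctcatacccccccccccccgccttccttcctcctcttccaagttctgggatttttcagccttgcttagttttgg

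Sgk1 encodes a serine kinase that raises sodium transport, and was at 76.1, 66.9, 81.5 and 104 CPM in saline and 134, 122, 102 and 159 CPM in Aducanumab. Saline 38 exceeded Aducanumab 56, and the difference was a log2 fold change of 0.66 ± 0.19 (SE). Gpd1, the glycerol phosphate dehydrogenase that links glycolysis to lipid synthesis, was at 103, 94.9, 109.9 and 101 CPM in saline and 128, 129, 127 and 113 CPM in Aducanumab. Its groups did not overlap, with a log2 fold change of 0.28 ± 0.053 (SE) and adjusted p = 0.485. Errfi1, which encodes an inhibitor of the EGF receptor, was at 37.3, 31.4, 42.6 and 33.7 CPM in saline and 43.4, 43.5, 45.8 and 44 CPM in Aducanumab, also without overlap (0.28). Per1, a clock gene with a glucocorticoid response element, was at 64.9, 62.5, 59.8 and 70.6 CPM in saline and 78.4, 72.1, 68.2 and 77.7 CPM in Aducanumab. Aducanumab 56 lay below saline 38, and the difference was a log2 fold change of 0.20 ± 0.064 (SE). Fkbp5, the receptor's co-chaperone, was at 54.3, 49.2, 57.3 and 50.3 CPM in saline and 64.3, 53.5, 68.7 and 55.2 CPM in Aducanumab, with 2 Aducanumab libraries inside the saline range and a log2 fold change of 0.20 ± 0.075 (SE). Ddit4, an inhibitor of mTORC1, was at 43.3, 34.3, 47.4 and 44.7 CPM in saline and 51, 51.4, 45.5 and 51.5 CPM in Aducanumab, which gave a log2 fold change of 0.23 ± 0.091 (SE). Without saline 19 the value for Ddit4 was 0.14, and without Aducanumab 56 that for Fkbp5 was 0.13.

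The remaining 4 genes at p below 0.05 were Mt2 (a metallothionein), Plin4 (a lipid droplet protein), Klf9 (a zinc finger factor) and Sult1a1 (a sulfotransferase), with log2 fold changes of 0.26, 0.74, 0.12 and 0.47. Tsc22d3, which encodes the glucocorticoid-induced leucine zipper protein, was at 48, 46.1, 41.3 and 49.1 CPM in saline and 62.4, 57, 40.8 and 59.3 CPM in Aducanumab and did not reach p below 0.05 (log2 fold change 0.25 ± 0.13 SE). Nr3c1, the glucocorticoid receptor itself, was at 94.4, 87.5, 82.2 and 88 CPM in saline and 74.1, 88.2, 73.1 and 81.2 CPM in Aducanumab, and was lower with a log2 fold change of -0.15 ± 0.063 (SE). Errfi1 and Gpd1 were the 2 members whose groups did not overlap (1.16% of all genes tested were higher without overlap). Per1, Fkbp5, Ddit4, Plin4, Sult1a1, Tsc22d3 and Nr3c1 were chosen after their values were seen. With the neocortex score as a covariate 5 members instead of 10 were higher at p below 0.05, and the log2 fold changes of Errfi1, Fkbp5, Klf9, Nr3c1 and Tsc22d3 were 0.18, 0.08, 0.08, -0.09 and 0.40. The list median without any 1 library ran from 0.17 to 0.25. The choroid plexus genes were high in 2 of the 4 Aducanumab libraries and in 1 of the 4 saline libraries, and with their score as a covariate 9 glucocorticoid targets were higher at p below 0.05 and Plin4 was at 0.46.

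**Figure D3:**
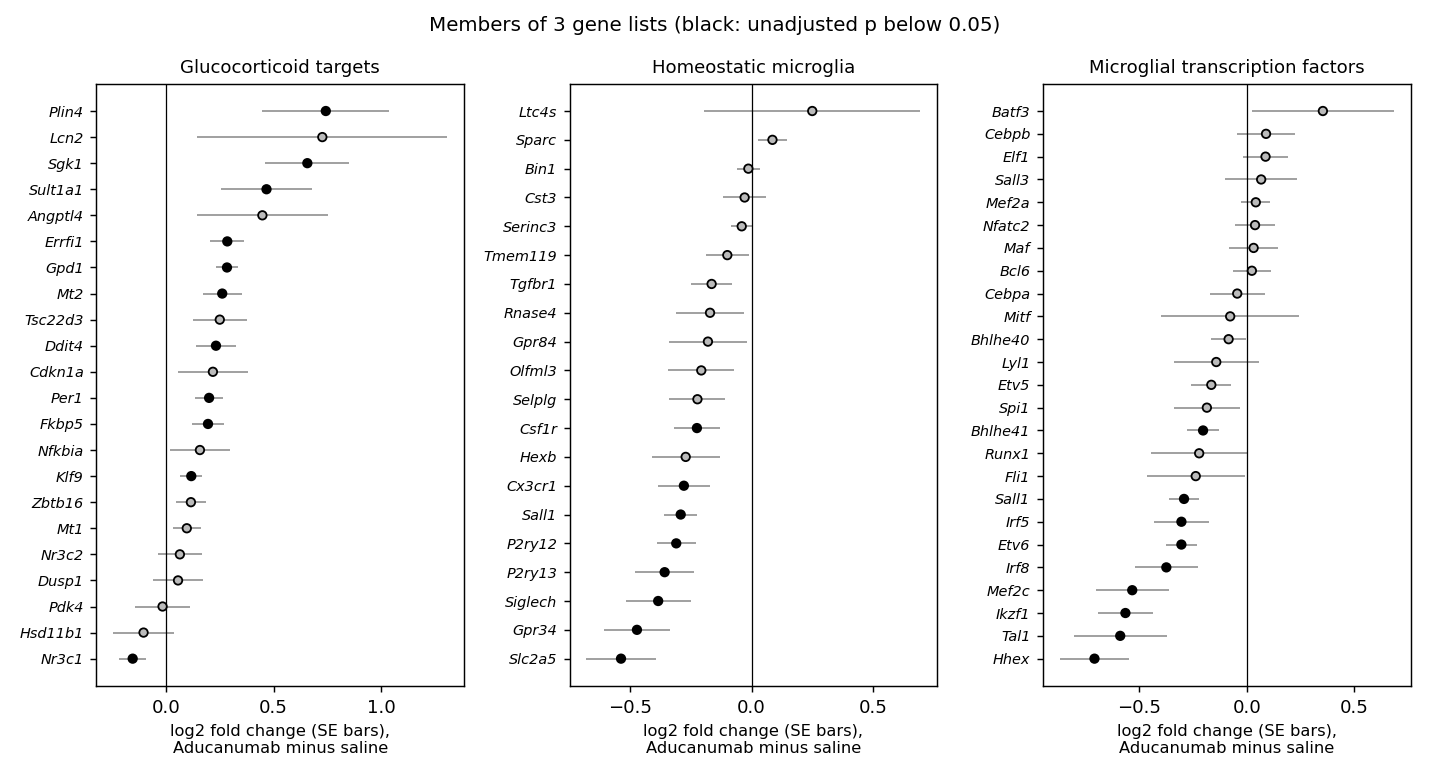
Log2 fold change, Aducanumab minus saline, with its SE, for the tested members of the glucocorticoid (22), homeostatic microglia (20) and microglial transcription factor lists (26, of which 1 is not shown); black points have an unadjusted p below 0.05. Sgk1 and Plin4 lie at 0.66 and 0.74 among the glucocorticoid targets, and Hhex at -0.71 lies lowest among the transcription factors.

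Among 20 genes for Fc gamma receptors and their signalling, 0 were higher under Aducanumab at p below 0.05 (2.07% of all genes tested). For a list of this size that count is near the share over all genes and says little about these genes. Of 20 genes for Fc gamma receptors and their signalling 17 were below 0, with a median log2 fold change of -0.21; 2 were lower at p below 0.05 (2.62% of all genes tested) and 2 were lower without overlap (1.41%). Without Aducanumab 56 the median was -0.13. By mean FPKM, which is scaled by gene length, Fcgr3 (22.3 in saline, 18.7 in Aducanumab) and Fcer1g (21.6 and 18) were the most abundant of the 6 receptor genes, followed by Fcgrt (8.17 and 8.07), Fcgr2b (3.51 and 2.76), Fcgr1 (3.49 and 2.82) and Fcgr4 (0.731 and 0.736). Fcgr3, the low-affinity activating receptor, was at 41.7, 40, 42.2 and 43.1 CPM in saline and 39.9, 29.5, 31.2 and 39.2 CPM in Aducanumab. The groups did not overlap, though saline 19 and Aducanumab 24 were nearly equal, and the test gave a log2 fold change of -0.26 ± 0.16 (SE). Fcer1g, the shared signalling chain, was at 18.5, 20.7, 22.4 and 19.9 CPM in saline and 17.3, 12.5, 16.4 and 21.6 CPM in Aducanumab, and Aducanumab 58 lay inside the saline range. Fcgr2b, the inhibitory receptor, was at 22.6, 17.4, 24.6 and 23.1 CPM in saline and 20.4, 13.1, 14.3 and 21.2 CPM in Aducanumab, with 50 and 56 low (log2 fold change -0.35 ± 0.23 SE). For the high-affinity receptor Fcgr1 the test gave a log2 fold change of -0.31 ± 0.26 (SE), and for Fcgr4 a value of 0.016. Fcgr1 was at -0.52, and Fcer1g at -0.43 instead of -0.27, with the neocortex score as a covariate. Fcgr1 and Fcgr4 were chosen after their values were seen. Fcgrt, the neonatal Fc receptor that recycles IgG, was at 16.2, 20.8, 16.4 and 20.7 CPM in saline and 16.7, 15.9, 14.9 and 25.4 CPM in Aducanumab, a log2 fold change of -0.022.

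Vav1, a guanine nucleotide exchange factor downstream of these receptors, was at 12.2, 12.2, 14 and 12.9 CPM in saline and 11.5, 8.49, 8.78 and 11.2 CPM in Aducanumab. No Aducanumab library reached the lowest saline library, with a log2 fold change of -0.36 ± 0.14 (SE). Blnk, the adaptor that links Syk to phospholipase C, was at 8.56, 9.63, 9.4 and 8.43 CPM in saline and 7.19, 5.86, 7.21 and 8.68 CPM in Aducanumab (log2 fold change -0.32 ± 0.13 SE). Inpp5d, the lipid phosphatase SHIP1 that dampens Fc signalling, was at 30.1, 33.3, 34.4 and 34.2 CPM in saline and 29, 24.6, 26.4 and 33 CPM in Aducanumab (-0.23). Pik3cg, a leukocyte phosphoinositide kinase of another list, was lower without overlap (-0.47).

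Most listed transcription factors of microglia were at a lower level in the Aducanumab libraries. Of 26 tested, 18 had a log2 fold change below 0 (48.7% of all genes), 10 were lower at p below 0.05 (2.62%) and 0 were higher (2.07%), and 5 were lower without overlap (1.41%). The median was -0.17, and ran from -0.27 without Aducanumab 58 to -0.12 without saline 38. The summed level of the 25 without Mef2c was 688.7 to 774.1 CPM in saline and 698.6 to 711.5 CPM in Aducanumab, so the groups overlapped, as did the scores of the whole list. Ikzf1, the lymphoid and myeloid zinc finger factor Ikaros, was at 12.6, 11.4, 12.3 and 14.1 CPM in saline and 8.53, 7.3, 8.96 and 9.26 CPM in Aducanumab. All 4 Aducanumab libraries were below all saline libraries, with a log2 fold change of -0.56 ± 0.13 (SE) and a DESeq2 adjusted p = 0.0456. Hhex, a homeobox factor of blood and endothelial lineages, was at 4.51, 4.31, 5.32 and 5.19 CPM in saline and 2.67, 3.12, 2.63 and 3.4 CPM in Aducanumab, also without overlap (log2 fold change -0.71 ± 0.16 SE). Sall1, which maintains microglial identity, was at 37.5, 37.5, 40.1 and 40.5 CPM in saline and 32.1, 32.7, 32 and 30.3 CPM in Aducanumab. The groups were well apart, with a log2 fold change of -0.29 ± 0.069 (SE). Etv6, an ETS family repressor, was at 17.6, 17.2, 16.8 and 17.2 CPM in saline and 13.6, 14.7, 12.6 and 14.9 CPM in Aducanumab (log2 fold change -0.30 ± 0.072 SE).

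Mef2c was at 159, 206, 104 and 121 CPM in saline and 91.6, 98, 116 and 102 CPM in Aducanumab, with a log2 fold change of -0.53 ± 0.17 (SE). This gene is also expressed in cortical and hippocampal neurons. Saline 18 and 19, which held the most neocortex RNA, were its highest libraries. The log2 fold change of Mef2c was -0.27 with the neocortex score as a covariate and -0.33 without saline 19. The mean neocortex score was 0.22 in saline and -0.22 in Aducanumab, so this covariate cannot tell tissue from treatment. The part of neocortex tissue in the Mef2c difference was not tested. Tal1, Irf8, Irf5 and Bhlhe41 had log2 fold changes of -0.59, -0.37, -0.30 and -0.20, and among these 4 only Tal1 did not overlap. Irf8 and Irf5 are interferon regulatory factors of the macrophage lineage. Spi1, which encodes PU.1, the factor that defines that lineage, was at 9.8, 8.66, 10.3 and 11 CPM in saline and 9.12, 8.1, 7.48 and 10.3 CPM in Aducanumab and did not reach p below 0.05 (log2 fold change -0.19 ± 0.15 SE). Mef2c, Tal1, Irf8, Irf5, Bhlhe41 and Spi1 were chosen after their values were seen. Without Aducanumab 56 the count at p below 0.05 was 5 instead of 10.

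Most homeostatic microglial genes were likewise below 0, with a summed level of 2813 to 3178 CPM in saline and 2595 to 3021 CPM in Aducanumab. Of 20 tested 18 were below 0, with a median of -0.215; 8 were lower at p below 0.05 and 7 without overlap, against 48.7%, 2.62% and 1.41% of all genes tested. Slc2a5, the fructose transporter of microglia, was at 11.9, 10.9, 12.4 and 10.3 CPM in saline and 6.96, 7.45, 7.57 and 9.43 CPM in Aducanumab, with a log2 fold change of -0.54 ± 0.14 (SE). Gpr34, a lysophosphatidylserine receptor, was at 42.3, 39.3, 49.4 and 46.4 CPM in saline and 33.4, 29.4, 30.8 and 34.3 CPM in Aducanumab (log2 fold change -0.47 ± 0.14 SE). P2ry12, the purine receptor that guides processes to injury, was at 69.4, 61.9, 77.5 and 79.7 CPM in saline and 62.3, 56.8, 54.4 and 59.1 CPM in Aducanumab; Aducanumab 24 just exceeded saline 19, and the difference was a log2 fold change of -0.31 ± 0.079 (SE). P2ry13 and Siglech were lower without overlap, at -0.36 and -0.38. Cx3cr1, the receptor for neuronal fractalkine, was at 101, 102, 115 and 113 CPM in saline and 96.9, 83, 78.2 and 97.1 CPM in Aducanumab. The lowest saline library was above the highest Aducanumab library, with a log2 fold change of -0.28 ± 0.11 (SE). Csf1r, the survival receptor of microglia, was at 231, 228, 259 and 247 CPM in saline and 220.3, 189, 198 and 219 CPM in Aducanumab, which gave a log2 fold change of -0.23 ± 0.094 (SE). Tmem119, a commonly used microglial marker, was at 30.2, 37.4, 34.3 and 34.7 CPM in saline and 32.1, 30.3, 28.9 and 36.2 CPM in Aducanumab with overlapping groups (log2 fold change -0.100 ± 0.089 SE). Gpr34, P2ry13 and Siglech were chosen after their values were seen. With the choroid plexus score as a covariate 8 homeostatic genes and 10 transcription factors were lower at p below 0.05, and with the neocortex score 10 and 8. Sall1 is a member of this list and of the transcription factors, so the 2 counts share it.

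**Figure D4:**
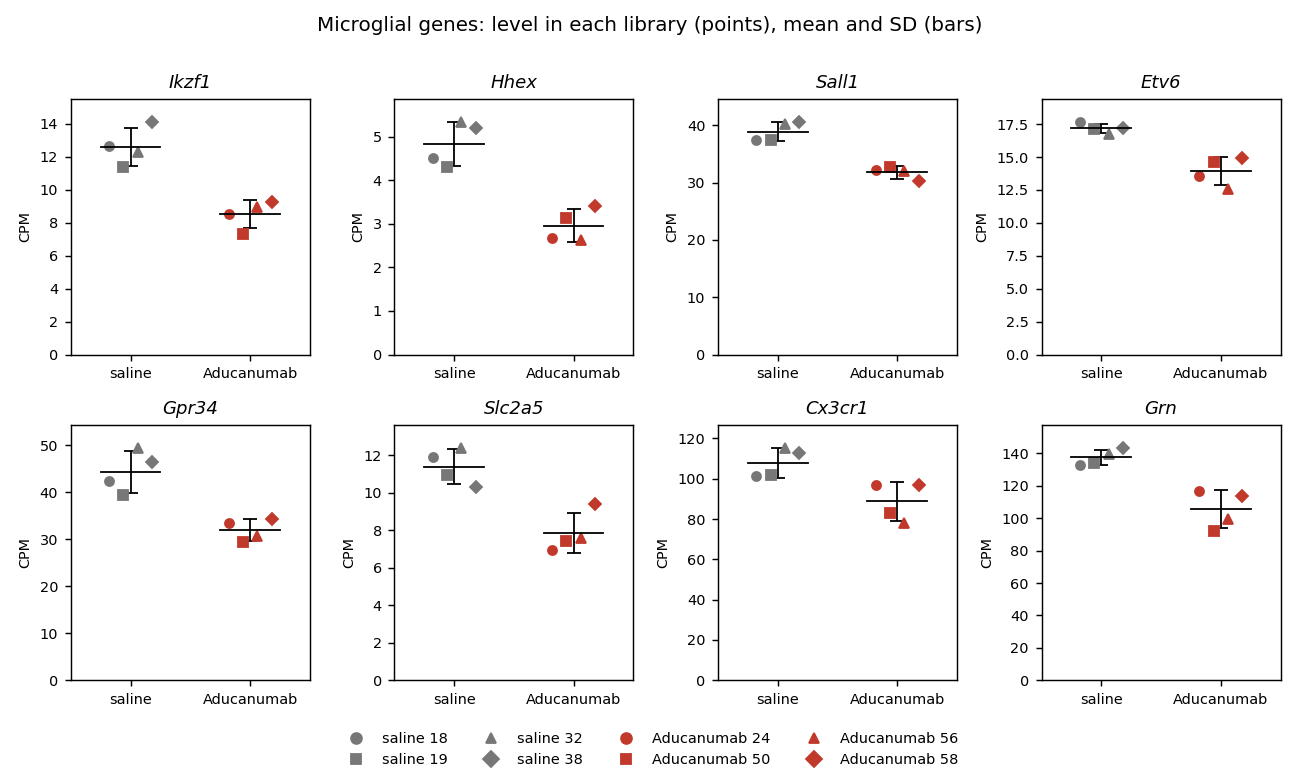
CPM of 8 genes expressed in microglia; each panel has its own y axis from 0, points are libraries, the horizontal line is the group mean and the bar is the SD (n = 4). The 8 genes shown are all among those lower without overlap, for example Grn at 133 to 143 CPM in saline and 92.3 to 117 CPM in Aducanumab. The groups of other microglial genes, such as P2ry12, Tmem119 and Trem2, overlapped.

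Genes of the plaque-associated programme were mostly below 0, in groups that overlapped. Of 35 disease-associated microglia genes 30 were below 0 (48.7% of all genes), with a median of -0.16. At p below 0.05, 3 were lower (2.62% of all genes tested) and 1 higher (2.07%). No member was free of overlap (2.58% of all genes tested were). Without Aducanumab 58 the median was -0.24, and without Aducanumab 56 it was -0.11. Trem2, the lipid receptor that drives the programme, was at 84.1, 68, 98.9 and 102 CPM in saline and 78.9, 60.3, 58.7 and 83.3 CPM in Aducanumab. Aducanumab 50 and 56 were low and 24 and 58 lay within the saline range, with a log2 fold change of -0.33 ± 0.19 (SE). Clec7a, the receptor dectin-1, was at 28.3, 26.3, 33.6 and 32.9 CPM in saline and 24.8, 17.9, 15.9 and 26.5 CPM in Aducanumab (log2 fold change -0.51 ± 0.23 SE). Cst7, which encodes a cystatin of plaque microglia, was at 40.8, 32.9, 50.5 and 48.6 CPM in saline and 33.2, 22.9, 21.2 and 41.3 CPM in Aducanumab and did not reach p below 0.05 (log2 fold change -0.54 ± 0.28 SE). Axl, a receptor for cells bearing phosphatidylserine, was at 84.3, 89.8, 91 and 98.4 CPM in saline and 76.6, 72.1, 69.1 and 89.8 CPM in Aducanumab (log2 fold change -0.24 ± 0.089 SE). Spp1, osteopontin, was the member that was higher, at 13.6, 14.9, 13.4 and 16.2 CPM in saline and 19.4, 25.2, 14.2 and 48 CPM in Aducanumab. Aducanumab 58 held by far the highest value, and that library was also the highest for meningeal fibroblast genes. Without it the log2 fold change of Spp1 was 0.44 instead of 0.88. The part of that tissue in the Spp1 difference was not tested. In the TREM2 signalling list 11 of 13 were below 0 (48.7% of all genes), with a median of -0.20 that ran from -0.31 without Aducanumab 58 to -0.11 without Aducanumab 56. The smallest p of that list was that of Ms4a4a, a membrane-spanning protein gene, which was higher without overlap at a very low level. It was at 0, 0, 0 and 0.0566 CPM in saline and 0.105, 0.21, 0.439 and 0.135 CPM in Aducanumab.

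Lysosomal genes differed little as a group. Of 52 tested 37 were below 0 (48.7% of all genes), but the median was -0.04. At p below 0.05, 2 were lower (2.62% of all genes tested), and 1 was lower without overlap (1.41%). That 1 was Grn, which encodes progranulin, a lysosomal glycoprotein whose loss causes frontotemporal dementia and ceroid lipofuscinosis. Grn was at 133, 134, 139.7 and 143 CPM in saline and 117, 92.3, 99.2 and 114 CPM in Aducanumab. All Aducanumab libraries were lower, with a log2 fold change of -0.38 ± 0.091 (SE) and adjusted p = 0.833. Ctsb, the cysteine protease cathepsin B, was at 757, 672, 756 and 799.6 CPM in saline and 655, 636, 647 and 708 CPM in Aducanumab (log2 fold change -0.17 ± 0.076 SE). Ctsd, the aspartic protease cathepsin D, was at 1209, 1038, 1403 and 1492 CPM in saline and 1089, 861, 970.4 and 1299 CPM in Aducanumab, with 50 and 56 low and a log2 fold change of -0.29 ± 0.17 (SE). Lamp1, a membrane protein of all lysosomes, was at 373, 345, 367 and 373 CPM in saline and 337, 336, 328 and 383 CPM in Aducanumab (log2 fold change -0.075 ± 0.076 SE). Cd68, the macrophage lysosomal protein, was at 39.7, 39, 48.5 and 45.5 CPM in saline and 33.7, 31.4, 27.6 and 40.5 CPM in Aducanumab (log2 fold change -0.37 ± 0.18 SE). Of 24 genes for the proton pump and lysosomal ion transport 0 reached p below 0.05 (4.68% of all genes tested), with a median of 0.01, and of 33 autophagy genes also 0, with a median of -0.02.

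Windows of Grn, P2ry13 and Vav1, genes of the lysosomal, homeostatic and Fc lists that were lower without overlap, are shown because they hold the letters GAGGAA, the core that PU.1 prefers, within 250 bases before the start site. GAGGAA, searched on both strands, was in 23.3% of all windows, in 3 of 18 windows of the homeostatic list (16.7%), in 9 of 34 of the transcription factors (26.5%) and in 8 of 19 of the Fc gamma receptor list (42.1%). Matches are in capitals, sequences are 5′ to 3′ on the gene's strand from RefSeq (GRCm38.p6), and the motif and genes were chosen after the matches were seen. Grn is at chr11:102430257-102430506 on the plus strand with 2 matches, P2ry13 at chr3:59210883-59211132 on the minus strand with 1, and Vav1 at chr17:57278850-57279099 on the plus strand with 1.
Grn: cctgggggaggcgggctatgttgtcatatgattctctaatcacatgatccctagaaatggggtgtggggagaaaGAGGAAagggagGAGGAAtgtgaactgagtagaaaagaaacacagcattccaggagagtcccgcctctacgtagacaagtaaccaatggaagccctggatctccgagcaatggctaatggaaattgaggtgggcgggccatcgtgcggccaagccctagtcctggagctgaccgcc
P2ry13: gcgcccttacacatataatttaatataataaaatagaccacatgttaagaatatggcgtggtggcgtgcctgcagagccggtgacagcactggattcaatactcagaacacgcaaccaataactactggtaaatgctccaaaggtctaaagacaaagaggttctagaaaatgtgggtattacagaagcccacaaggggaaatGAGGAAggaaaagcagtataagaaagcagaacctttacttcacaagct
Vav1: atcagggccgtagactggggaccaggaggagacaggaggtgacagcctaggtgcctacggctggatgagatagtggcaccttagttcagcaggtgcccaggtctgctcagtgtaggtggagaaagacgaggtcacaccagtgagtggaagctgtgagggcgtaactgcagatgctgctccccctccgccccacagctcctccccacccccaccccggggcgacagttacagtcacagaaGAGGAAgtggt

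Complement, interferon and antigen presentation genes were mostly below 0 and mostly short of p below 0.05. Of 18 complement genes 11 were below 0, with a median of -0.06 (-0.23 without Aducanumab 58 and -0.0040 without Aducanumab 50). C1qb, a subunit of the complement recognition molecule, was at 142, 139, 167 and 158 CPM in saline and 133, 101, 110.5 and 143 CPM in Aducanumab (log2 fold change -0.31 ± 0.15 SE). C3ar1, the receptor for the C3a fragment, was at 13.3, 13.9, 14.1 and 14.1 CPM in saline and 11.1, 7.75, 6.79 and 14 CPM in Aducanumab; Aducanumab 50 and 56 were low (log2 fold change -0.48 ± 0.19 SE). Of 31 type I interferon genes 29 were below 0 (48.7% of all genes), with a median of -0.22. At p below 0.05, 2 were lower (2.62% of all genes tested), Ifit2 (-0.32) and Gbp3 (-0.43). Of 21 antigen presentation genes 18 were below 0, with a median of -0.15 that ran from -0.33 without Aducanumab 58 to -0.05 without Aducanumab 50. Psmb9, an immunoproteasome subunit, was at 3.28, 5.24, 4.51 and 3.76 CPM in saline and 2.86, 2.75, 3.02 and 3.57 CPM in Aducanumab (log2 fold change -0.46 ± 0.18 SE). B2m, the light chain of MHC class I, was at 189, 226, 235 and 237 CPM in saline and 172, 145, 177 and 221 CPM in Aducanumab (log2 fold change -0.31 ± 0.16 SE). Ighm, the immunoglobulin mu heavy chain, was at 24.1, 27.3, 29.3 and 29 CPM in saline and 17.6, 19.5, 18.8 and 23.6 CPM in Aducanumab, lower without overlap (log2 fold change -0.46 ± 0.14 SE). It belongs to a list of T, B and NK lymphocyte genes, of which 7 of 17 were above 0 and 10 below, with a median of -0.20 (0.0091 without Aducanumab 24). Trac, the constant region of the T cell receptor alpha chain, was the 1 member higher at p below 0.05 (2.07% of all genes tested). It was at 0.629, 0.323, 0.658 and 0.637 CPM in saline and 0.942, 0.859, 1.3 and 0.592 CPM in Aducanumab. The groups overlapped, with a log2 fold change of 0.72 ± 0.30 (SE), and 0.43 with the neocortex score as a covariate. The interferon median ran from -0.39 without Aducanumab 58 to -0.10 without saline 38, and with the choroid plexus score as a covariate the interferon and antigen presentation medians were -0.34 and -0.30.

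Mouse genes for the amyloid precursor and its processing showed small differences. Transcripts of the human transgenes were not measured apart from them. Of 23 amyloid precursor processing genes 10 were above and 13 below 0, with a median of -0.0043 and 0 at p below 0.05 (4.68% of all genes tested). App was at 1361, 1178, 1222 and 1213 CPM in saline and 1289, 1328, 1302 and 1233 CPM in Aducanumab (log2 fold change 0.051 ± 0.051 SE). Of 28 genes for binding, degrading or exporting amyloid beta 18 were above 0 (median 0.04). At p below 0.05, 2 were higher (2.07% of all genes tested) and 2 lower (2.62%). Plat, tissue plasminogen activator, was at 39.8, 42.4, 42.7 and 44.5 CPM in saline and 47.9, 47.6, 47 and 56.3 CPM in Aducanumab. It was higher without overlap, Aducanumab 58 being highest (log2 fold change 0.23 ± 0.062 SE). Plau, the urokinase, was at 7.01, 6.72, 8.63 and 9.15 CPM in saline and 7.05, 4.61, 5.01 and 6.99 CPM in Aducanumab (log2 fold change -0.41 ± 0.17 SE). Itm2c, a BRI family protein that binds the precursor, was at 688, 696, 724 and 636 CPM in saline and 763, 687, 757 and 724 CPM in Aducanumab (log2 fold change 0.095 ± 0.050 SE).

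Genes of the vessel wall were mostly above 0, and much of this lay in Aducanumab 58. Of 25 basement membrane and matrix protease genes 21 were above 0, with a median of 0.14 (0.03 without Aducanumab 58). At p below 0.05, 2 of them were higher (2.07% of all genes tested). Lamb1, a laminin chain, was at 38.8, 39.6, 44.3 and 52.5 CPM in saline and 49.5, 42.8, 60.9 and 57.5 CPM in Aducanumab (log2 fold change 0.27 ± 0.11 SE); its value was 0.14 with the neocortex and 0.18 with the choroid plexus score as a covariate. Timp1, an inhibitor of metalloproteases, was at 0.367, 0.419, 0.837 and 0.792 CPM in saline and 1.06, 1.05, 1.07 and 1.1 CPM in Aducanumab, higher without overlap at a low level (log2 fold change 0.82 ± 0.34 SE). Of 30 endothelial and barrier genes 18 were above 0, with a median of 0.03 (-0.13 without Aducanumab 58). Slc2a1, the glucose transporter of the barrier, was at 66.4, 76.4, 71.4 and 69.3 CPM in saline and 83, 77.7, 78.2 and 99.4 CPM in Aducanumab (a log2 fold change of 0.25 ± 0.091 (SE), and 0.17 without Aducanumab 58). Cldn5, the tight junction claudin, was at 35.6, 41.8, 39.7 and 37.9 CPM in saline and 27.6, 36.7, 34.1 and 43 CPM in Aducanumab (log2 fold change -0.13 ± 0.10 SE).

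Of 21 genes for heme, iron and the response to hemorrhage 10 were above and 11 below 0, with a median of -0.04. Hmox1, heme oxygenase 1, was at 9.89, 6.01, 8.64 and 9.15 CPM in saline and 6.98, 6.03, 7.87 and 7.85 CPM in Aducanumab (log2 fold change -0.23 ± 0.19 SE), Ftl1, ferritin light chain, at 199, 204, 234 and 239.8 CPM in saline and 195, 193, 181 and 219 CPM in Aducanumab (log2 fold change -0.15 ± 0.086 SE), and Slc40a1, the iron exporter ferroportin, at 12.8, 15.1, 13.3 and 11.9 CPM in saline and 10.4, 12.1, 11.8 and 12.1 CPM in Aducanumab (log2 fold change -0.19 ± 0.11 SE). None of the 3 reached p below 0.05. Of 16 coagulation genes 10 were above 0, with a median of 0.15 (-0.08 without Aducanumab 58). All 7 tested blood cell genes were above 0 with a median of 0.45, which was 0.11 without Aducanumab 58. Hbb-bs, an adult beta globin, was at 42.9, 62.8, 65.6 and 42.1 CPM in saline and 53.8, 77.3, 40.1 and 132 CPM in Aducanumab, with Aducanumab 58 highest (log2 fold change 0.51 ± 0.34 SE).

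Lists for regions next to the hippocampus differed between the groups. Of 17 neocortex genes 8 were lower at p below 0.05 (2.62% of all genes tested) and 2 without overlap (1.41%). The median was -0.38 and ran from -0.56 without saline 32 to -0.23 without saline 19. Tbr1, a T-box factor of deep cortical layers, was at 56.5, 48.2, 35.3 and 38.9 CPM in saline and 30.1, 32.3, 34.7 and 31.3 CPM in Aducanumab, lower without overlap (log2 fold change -0.48 ± 0.13 SE). Cplx3, a complexin found in cortical subplate neurons, was at 6.97, 7.24, 2.03 and 4.51 CPM in saline and 1.03, 3.02, 1.02 and 1.64 CPM in Aducanumab (log2 fold change -1.63 ± 0.46 SE). Without Aducanumab 24 the count was 5. Of 17 thalamus, habenula and midbrain genes 5 were higher at p below 0.05 (2.07% of all genes tested), but Aducanumab 50 carried the values. Tcf7l2, a thalamic factor, was at 4.32, 4.6, 5.52 and 5.35 CPM in saline and 4.29, 28.3, 3.68 and 6.26 CPM in Aducanumab. Tnnt1 was at 0.157, 0.903, 0.344 and 0.523 CPM in saline and 0.227, 7.86, 0.533 and 0.592 CPM in Aducanumab. Gbx2 was at 0.0874, 0.0484, 0.149 and 0.0566 CPM in saline and 0.192, 1.14, 0.204 and 0.186 CPM in Aducanumab. Without Aducanumab 50 the median was -0.06 and the count was 0.

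Among hippocampal neuron genes, Grik4, the kainate receptor subunit of CA3, was at 51.4, 50.4, 61.5 and 50.4 CPM in saline and 82.7, 56.8, 76.3 and 58.8 CPM in Aducanumab (log2 fold change 0.36 ± 0.11 SE), and Neurod1, a factor of granule neurons, at 18.8, 18.5, 22.5 and 20 CPM in saline and 24.4, 22.2, 24.2 and 23.5 CPM in Aducanumab (log2 fold change 0.24 ± 0.075 SE). Of 16 dentate gyrus genes 13 were above 0 (median 0.10) and of 20 CA field genes 14 (median 0.11), against 51.3% of all genes. Dlg1, the scaffold SAP97, was at 120.2, 125, 102 and 114 CPM in saline and 100.5, 101, 102 and 101 CPM in Aducanumab (log2 fold change -0.19 ± 0.054 SE). Cacna1c, an L-type calcium channel subunit, was at 126, 136, 141 and 119.6 CPM in saline and 183, 139, 165 and 139 CPM in Aducanumab (log2 fold change 0.26 ± 0.091 SE). With the neocortex score as a covariate the log2 fold changes of Grik4, Neurod1, Dlg1 and Cacna1c were 0.16, 0.16, -0.11 and 0.14, and the medians of the dentate gyrus and CA field genes were 0.04 and 0.05. Lists for glutamate receptors, presynapse and calcium handling had medians of 0.0008, -0.04 and 0.04.

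Activity-induced and progenitor genes gave few differences. Fos, an immediate early factor, was at 9.52, 9.38, 12.2 and 12.1 CPM in saline and 9.31, 8.59, 7.79 and 8.44 CPM in Aducanumab, lower without overlap (log2 fold change -0.34 ± 0.11 SE). Egr1 and Ier2 were lower (-0.20 and -0.28) and Gadd45g was higher (0.29), and the median of the 29 immediate early genes was -0.02. Without Aducanumab 58 Egr1 was at -0.12 and Gadd45g at 0.19. Ier2 was chosen after its values were seen. Eomes, a factor of intermediate progenitors, was at 0.0699, 0.0484, 0.149 and 0.184 CPM in saline and 0.279, 0.438, 0.345 and 3.71 CPM in Aducanumab. The groups did not overlap and Aducanumab 58 was by far the highest; the log2 fold change was 3.35, and 1.61 without that library.

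Astrocyte, oligodendrocyte and metabolic lists lay near 0. Gfap, the astrocyte filament, was at 1517, 1109, 1794 and 1553 CPM in saline and 1455, 1147, 1231 and 1444 CPM in Aducanumab (a log2 fold change of -0.18 ± 0.17 (SE), and -0.36 with the neocortex score as a covariate), and the medians of 28 reactive and 23 homeostatic astrocyte genes were -0.0031 and 0.01. Smad3, a TGF-beta effector, was at 85.7, 88.5, 82 and 80.5 CPM in saline and 68.7, 78.6, 78.2 and 77.7 CPM in Aducanumab, lower without overlap (log2 fold change -0.15 ± 0.050 SE). Cbs, which makes cystathionine, was at 25.9, 28.6, 25.2 and 25.6 CPM in saline and 30.2, 29.6, 30.1 and 31.2 CPM in Aducanumab, higher without overlap (log2 fold change 0.20 ± 0.073 SE). Of 23 myelin genes 17 were above 0 with a median of 0.04 and 0 at p below 0.05 (4.68% of all genes tested). Of 35 nuclear respiratory chain genes 14 were above 0 with a median of -0.0073, and again 0 reached p below 0.05.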

How the data were processed

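RNA-seq libraries of 5xFAD hippocampus were compared, 4 given Aducanumab and 4 given saline. Of the upstream steps, the submitters' processing notes list the aligner HISAT2 2.0.4, the trimmer cutadapt 1.9, the assembler StringTie 1.3.4d and edgeR; neither build nor annotation is stated there. The authors deposited 1 table with raw read counts per gene and, per the file headers, FPKM values beside them; the authors' fold change and p columns were not used. Counts of all 13 libraries entered 1 fit in edgeR 4.0.16 (R 4.3.3) with TMM scaling, filterByExpr and a mean per treatment; the contrast was Aducanumab minus saline, two-sided, with Benjamini-Hochberg adjustment over 22065 genes at a threshold of 0.05. The SE was derived from the log2 fold change and its F statistic. DESeq2 1.42.0 on counts and limma 3.58.1 on log2(FPKM + 1) were alternatives; a fold change on that log2 scale of the deposited FPKM, with a pseudocount of 1, understates low genes. List scores are means of log2 CPM (prior count 2) centred over the 8 libraries. Depth was 56858092 to 69734713 counts; 6969 genes tested (31.6%) had a mean under 100 counts. The fit was tested on simulated data. Named genes were the 30 with the smallest unadjusted p at a mean of at least 1 CPM (no pseudogenes or predicted genes), the 3 with the smallest p and the most abundant in each of 53 lists, a fixed set, and DESeq2's calls. Some of the 235 genes so named were left out after the values under other settings were seen, most of them with a difference near 0. Genes outside the rule are marked as chosen after their values were seen. The members and lists were chosen with earlier results of these data known. Some named genes are not reported here.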

Additional observations from a re-analysis of the deposited data

Results flagged for a closer look

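In a group of 4 libraries, 1 library can stand apart from the other 3. This was checked with Dixon's gap-to-range ratio at its 95% critical value for 332 groups, which are the saline and Aducanumab values of the genes described and the scores of the lists, and 22 were above it; chance gives about 1 in 20.

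Aducanumab 58 stood apart in most of the flagged Aducanumab groups. It was lowest for Gpd1 (113 CPM, the others 127 to 129) and highest for Plat (56.3 CPM against 47 to 47.9), Lamp1 (383 CPM against 328 to 337) and Eomes (3.71 CPM against 0.279 to 0.438). Its scores were also highest for endothelium and blood-brain barrier (0.43), vascular basement membrane and matrix proteases (0.41), heme, iron and hemorrhage response (0.3), heat shock and unfolded protein response (0.15) and oxidative stress response (0.18). This library held the most meningeal fibroblast RNA of the 8, and its part in these values was not tested.

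Aducanumab 50 was highest for Tnnt1 (7.86 CPM), Gbx2 (1.14 CPM) and Tcf7l2 (28.3 CPM), 3 genes of the thalamus list. Aducanumab 56 was lowest for Ddit4 (45.5 CPM) and Aducanumab 24 for Smad3 (68.7 CPM).

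Among the saline libraries, 19 was highest for Col25a1 (68.8 CPM). Saline 32 was highest for Hpn (3.3 CPM), Grik4 (61.5 CPM) and Nav2 (78.4 CPM). Saline 38 was highest for Ttr (4482 CPM) and for the oxidative stress score (0.12), and it held the saline reads of Ms4a4a (0.0566 CPM, the others at 0). Saline 19 was lowest for Trac (0.323 CPM, the others 0.629 to 0.658).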

How the results depend on the processing

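No paired analysis was possible because no replicate number is shared by the groups. Over the settings tried (other filters, scalings and tools, fewer libraries, covariates), edgeR called 0 genes except for 1, Nav2, without saline 32; DESeq2 called 16, and without a filter on low counts 1672 genes had an unadjusted p below 0.05. Without any 1 library, called genes ran from 0 to 1 and genes without overlap from 1031 to 1397, and without both Aducanumab 50 and 58, a setting added after seeing the data, 3542 did not overlap; fewer libraries overlap less by construction.

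Without 1 library, thalamus genes at p below 0.05 ran from 0 to 6, microglial transcription factors from 5 to 11 and neocortex genes from 5 to 10. The thalamus count was 3 with DESeq2 and the robust fit, 0 with limma, 2 with only the 8 libraries and 0 without Aducanumab 50 and 58. With the neocortex score as a covariate it was 9, the glucocorticoid count was 5 and the neocortex count was 0, the last by construction, and the medians of GABA interneurons and calcium handling were 0.12 and -0.037. Without Aducanumab 50 and 58 the medians of lymphocytes, astrocyte homeostasis, blood cell RNA, CA fields and cholesterol synthesis were -0.63, -0.077, -0.093, 0.22 and 0.098. The causes were not tested.

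Some log2 fold changes reversed sign. Fcgr4 was -0.0052 with limma, -0.16 with the choroid plexus covariate and ran from -0.15 (without saline 32) to 0.30 (without Aducanumab 50) without 1 library. Fcgrt was 0.072 with the neocortex covariate and ran from -0.22 (without Aducanumab 58) to 0.064 (without Aducanumab 56). Without 1 library Tnnt1 ran from -0.096 to 2.73 and Tcf7l2 from -0.060 to 1.39, both lowest without Aducanumab 50, and without 50 and 58 they were -0.34 and -0.31 and Hbb-bs -0.19. The other genes described kept their sign under every setting that gave a value. The set of genes described was reduced after these values were seen, so this holds in part by choice. Over all 235 genes named by the rule, 121 of 4452 values reversed, in 45 genes, and 93 of the 121 were in genes with an absolute log2 fold change under 0.1. Of the tested genes 31.6% had a mean under 100 counts, and differences there are the least precise.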
